A study of Mus musculus with 4 samples.

Results

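The nuclear pore and nuclear transport genes were compared between Ly6G+ bone marrow cells of lal-/- and lal+/+ mice. They are the genes whose symbol begins with Nup and a digit, Kpna, Kpnb, Xpo, or Ipo and a digit, together with Ndc1, Pom121, Aaas, Seh1l, Rae1, Ran, Rangap1, Ranbp1, Ranbp2, Rcc1, Cse1l, Tnpo1 and Tnpo3. 53 such genes were measured, of 19938 genes in all, and 64 probe sets read them. The rule also names Tpr, which was not analysed here. Of the 53 genes, 51 fall into 10 groups by the role of the protein, while Nup210l and Nup62cl resemble pore proteins in name and sequence and were kept apart.

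RNA was hybridized to 4 Affymetrix Mouse Gene 1.0 ST arrays, 2 of lal-/- and 2 of lal+/+ mice, all 5 months old and backcrossed to FVB/N. The lal-/- mice lack lysosomal acid lipase (LAL), the enzyme that hydrolyzes cholesteryl esters and triglycerides in lysosomes, in every cell of the body, and carry no other treatment. The study names the cells of both genotypes myeloid-derived suppressor cells (MDSCs), a term for immature myeloid cells that can inhibit T cells. The labels describe them as CD11b+ and Gr-1+, and the methods as selected with an antibody against Ly6G. Whether the 2 arrays of a genotype held RNA of single or pooled mice was not stated, so a p-value covers no more than the variation between the arrays, and that may be technical. With 2 arrays against 2, an exact two-sided permutation test cannot give a p below 0.333. The tests below therefore come from limma, which pools the spread over all probe sets.

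Nuclear pores are ring-shaped channels through the nuclear envelope that are built from nucleoporins. A membrane ring anchors the pore, Y-shaped complexes and an inner ring form its scaffold, and nucleoporins with phenylalanine-glycine repeats fill the channel. Importins carry cargo into the nucleus and exportins carry it out, and the GTPase Ran, loaded with GTP inside the nucleus and made to hydrolyze it outside, sets the direction. In cells of the neutrophil lineage the nucleus becomes ring-shaped or lobed during maturation, and in dividing cells the pores are taken apart and rebuilt at each mitosis.

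Lipa, which encodes LAL and is the disrupted gene, read 7.37 and 7.49 in lal-/- cells and 9.50 and 9.05 in lal+/+ cells, so that the log2 fold change was -1.85 (standard error 0.17, limma adjusted p = 4.17e-04). All levels here are log2 values after quantile normalization, and each log2 fold change is lal-/- minus lal+/+. A gene was called higher or lower at an adjusted p under 0.05 together with a fold change of at least 2. Over all probe sets, which do not count as replicates, Pearson's r was 0.987 for the lal-/- pair of arrays, 0.984 for the lal+/+ pair and 0.922 to 0.932 between genotypes. Olfactory receptor genes, of which few are expressed outside the nose, were read by 1035 probe sets, and the 95th percentile of their levels served as background. It was 6.29 in lal-/- cells and 6.79 in lal+/+ cells. In lal-/- preparations the markers of neutrophils (5 of 8 called higher), promyelocytes (5 of 5) and proliferation (13 of 17) were higher, and 7 of 7 markers of B cells and 6 of 8 of monocytes and macrophages were lower. T cell markers were mixed, with 1 of 4 higher (Cd3d) and 2 lower. Of 4 plasma cell markers 2 were lower, and of 3 erythroid markers 0 were called. Among all genes 7.56% were called higher and 3.24% lower. Fewer cells of a type and less RNA per cell cannot be told apart in such bulk samples.

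With quantile normalization, positive and negative log2 fold changes were nearly equal in number among the nuclear transport genes. Kpna2, an importin alpha, was 3.76-fold higher in lal-/- cells. Ranbp2, the large SUMO ligase of the cytoplasmic pore filaments, was 2.36-fold lower, while the other 51 genes were not called. These 2 genes are 3.77% of the 53, against 10.8% of all genes called in either direction (7.56% higher, 3.24% lower). Of the 40 nuclear transport genes above background in both genotypes 2 (5%) were called, against 18.7% of the 7059 genes of all at such levels. The median log2 fold change of the 53 genes was 0.067, against 0.085 for all genes, with quartiles of -0.38 and 0.27 against -0.17 and 0.36. 27 of the 53 had a positive and 26 a negative log2 fold change. This balance depended on the scaling, since 38 were positive with the arrays shifted to a common median and 33 with the values as deposited.

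The absence of a call did not mean identical levels. Without the fold threshold, 5 of the 53 genes were higher and 10 were lower at an adjusted p under 0.05, which is 28.3% of them, against 29.6% of all genes (19.8% higher, 9.85% lower). Among genes above background in both genotypes the shares were 27.5% of 40 and 48.8% of 7059. These counts hold for quantile normalization. At the same adjusted p, 15 of the 53 genes were higher and 5 lower with a common median (26.7% and 7.7% of all genes). As deposited 11 were higher and 9 lower (21.4% and 14.5% of all genes). Both lal-/- arrays lay above both lal+/+ arrays for 19 genes and below both for 24, and the arrays of the genotypes overlapped for 10. Among all genes, 41.6% lay above and 24.1% below in this way. The 95% confidence interval of the log2 fold change lay within a 2-fold change in either direction for 44 of the 53 genes (83.0%), against 78.8% of all genes. Among genes above background in both genotypes it did so for 85% of 40 and 64.3% of 7059. Genes near background in 1 genotype, some with large differences, are left out of these shares. The 9 genes whose interval reached beyond 2-fold were Nup160, Nup133, Nup37, Ranbp2, Cse1l, Kpna2, Ipo5, Ndc1 and Nup210l. 4 genes (Kpna7, Ipo11, Ndc1 and Nup62cl) lay below background in both genotypes, 9 in lal+/+ cells only, and 40 above it in both. Background was higher in lal+/+ cells (6.79 against 6.29), so a gene could fall below it there without a lower level. Ipo4 did so, with a mean of 6.48 in lal-/- and 6.60 in lal+/+ cells. Of the 40 genes, 17 had a positive and 23 a negative log2 fold change, against 27 and 26 of the 53.

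**Figure D1:**
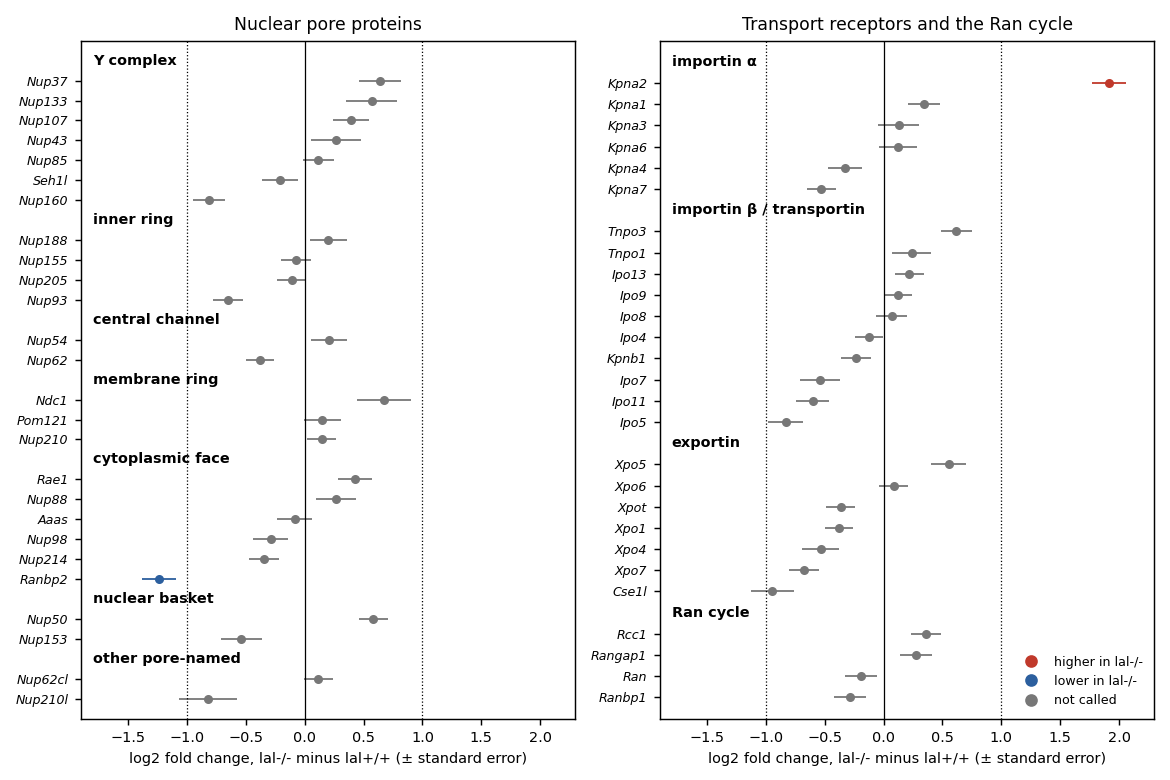
Log2 fold change (lal-/- minus lal+/+) of each of the 53 genes by role, with points at the estimate and bars of 1 standard error from limma. Kpna2 at 1.91 and Ranbp2 at -1.24 are the only genes called, and the others lie between -0.95 and 0.67.

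The size of these differences depended on how the arrays were scaled, which bears on every small value below. The deposited medians over all probe sets were 6.15 and 6.15 for lal-/- and 6.30 and 6.36 for lal+/+. With quantile normalization 27 of the 53 genes were positive, with a common median 38, and with the values as deposited 33. Among all genes the positive share was 59.7%, 63.6% and 44.3% in the same order. Of the 15 alternatives tried, 7 can change a log2 fold change (the other scalings, the mean of a gene's probe sets, and each array left out), and the others change only the test. In these 7, 36 of the 53 genes kept their sign (21 positive, 15 negative) and 17 changed it at least once. With a common median 3 of the 53 genes were called higher and 0 lower, against 13.1% and 2.34% of all genes, and as deposited 1 was called higher and 0 lower, against 10.1% and 3.17%.

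**Figure D2:**
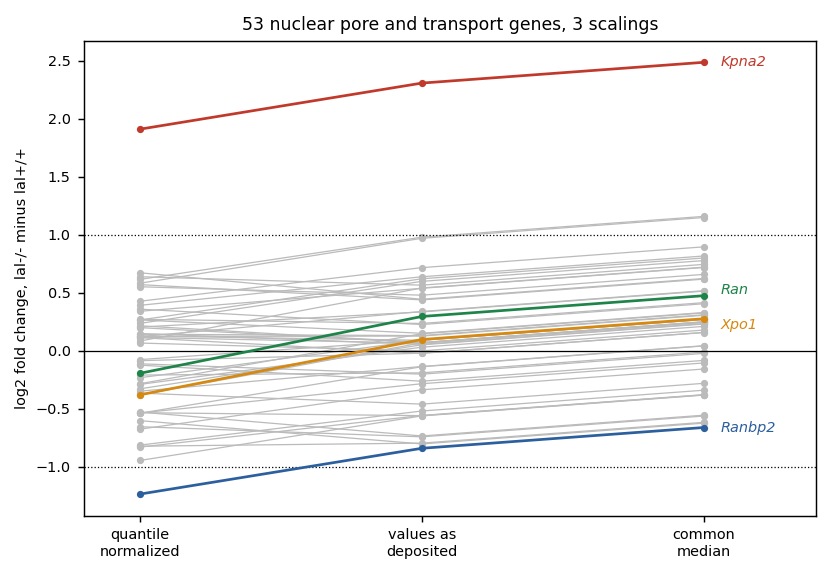
Log2 fold change (lal-/- minus lal+/+) of the 53 genes with quantile normalization, with the values as deposited, and with the arrays shifted to 1 median, 1 line for each gene. The number of positive genes was 27, 33 and 38 in this order, and Ranbp2 stayed negative at -1.24, -0.84 and -0.66.

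Promoters of 4 genes are printed because they belong to the gene that was higher (Kpna2), the gene that was lower (Ranbp2), the basket gene with the smallest adjusted p among genes with an NRF1 match (Nup50), and Ran, the GTPase of the pathway. Nup50 was chosen after its values were seen. The sequences are RefSeq promoters of 300 bases on build GRCm38.p6, from 250 bases before the annotated start to 50 after it, read in the direction of the gene. They lie at chr11:106999476-106999775 on the minus strand (Kpna2), chr10:58446602-58446901 on the plus strand (Ranbp2), chr15:84923178-84923477 on the plus strand (Nup50) and chr5:129019906-129020205 on the plus strand (Ran). Capitals mark matches to the motifs named next, on either strand.
Kpna2: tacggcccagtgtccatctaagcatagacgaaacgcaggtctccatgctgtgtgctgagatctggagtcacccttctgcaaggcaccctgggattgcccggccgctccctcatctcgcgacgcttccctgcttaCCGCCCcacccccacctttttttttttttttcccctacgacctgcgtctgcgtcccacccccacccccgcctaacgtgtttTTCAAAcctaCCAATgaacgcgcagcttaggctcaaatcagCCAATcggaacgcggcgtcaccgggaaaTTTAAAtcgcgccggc
Ranbp2: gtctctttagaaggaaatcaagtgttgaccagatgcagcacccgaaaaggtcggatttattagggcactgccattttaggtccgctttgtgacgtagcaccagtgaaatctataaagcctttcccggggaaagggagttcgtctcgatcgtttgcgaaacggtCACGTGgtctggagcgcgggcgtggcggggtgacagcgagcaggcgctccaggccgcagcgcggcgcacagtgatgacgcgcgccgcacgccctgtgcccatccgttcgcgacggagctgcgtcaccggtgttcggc
Nup50: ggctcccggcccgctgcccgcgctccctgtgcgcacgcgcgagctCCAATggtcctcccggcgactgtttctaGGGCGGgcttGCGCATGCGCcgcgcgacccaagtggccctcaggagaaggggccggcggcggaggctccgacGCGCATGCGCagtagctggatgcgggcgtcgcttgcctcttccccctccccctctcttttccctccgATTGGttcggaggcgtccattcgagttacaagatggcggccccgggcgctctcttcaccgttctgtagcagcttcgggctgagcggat
Ran: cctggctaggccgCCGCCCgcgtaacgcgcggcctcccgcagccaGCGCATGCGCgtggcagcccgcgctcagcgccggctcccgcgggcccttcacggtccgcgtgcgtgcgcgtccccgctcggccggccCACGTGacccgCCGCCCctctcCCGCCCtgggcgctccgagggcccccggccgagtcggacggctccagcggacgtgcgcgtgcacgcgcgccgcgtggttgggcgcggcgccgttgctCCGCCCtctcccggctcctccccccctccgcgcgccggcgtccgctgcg
The motifs were the CCAAT box (CCAAT, or ATTGG on the other strand), the cell cycle homology region CHR (TTTGAA or TTCAAA, and TTTAAA), the E box (CACGTG), the E2F motif (TTTCGCGC or GCGCGAAA, TTTGGCGC or GCGCCAAA), the NRF1 motif (a palindrome of GCGCA followed by its reverse complement TGCGC), the ETS motif (CCGGAAG or CTTCCGG) and the GC box (GGGCGG or CCGCCC). No printed match overlaps another.

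The Kpna2 promoter held 5 matches, among them CHR letters 35 bases before the start and CCAAT boxes on both sides of the start. CHR and CCAAT boxes are known from promoters of mitotic genes. Ranbp2 held 1 match, an E box, the motif bound by factors such as Myc and USF, 87 bases before the start. Nup50 held 5 matches, including 2 of NRF1, a factor known for housekeeping and mitochondrial genes, and Ran held 6, including 1 of NRF1.

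Of the 53 genes, 43 have an entry among the 21263 promoters of 17492 protein-coding genes. The NRF1 letters occurred in 5 of the 43 genes (Nup107, Nup50, Nup62, Ran and Xpo5), or 11.6%, against 1.47% of all genes with a promoter. The E box occurred in 18.6% against 8.91%, the GC box in 69.8% against 49.2%, the ETS motif in 18.6% against 12.9%, the CHR in 34.9% against 28.2%, the CCAAT box in 46.5% against 42.3%, and the E2F motif in 2.33% against 1.21%. These shares are descriptions with no test, and a match is not a binding site. The 5 genes with NRF1 letters had log2 fold changes of 0.39 (Nup107), 0.58 (Nup50), -0.38 (Nup62), -0.19 (Ran) and 0.55 (Xpo5), hence of both signs. The negative ones turned positive as deposited and with a common median (Nup62 at 0.07 and 0.25, Ran at 0.30 and 0.48). Most of the 53 genes were positive in these scalings too (33 and 38 in the same order).

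Importin alpha proteins bind the classical nuclear localization signal of a cargo and hand it to importin beta. Kpna2 read 10.16 and 10.39 in lal-/- cells and 8.47 and 8.25 in lal+/+ cells, so the genotypes were far apart without overlap. Its mean level was 10.27 ± 0.16 in lal-/- cells and 8.36 ± 0.15 in lal+/+ cells (SD, n = 2 arrays each), and the log2 fold change was 1.91 (standard error 0.15, limma adjusted p = 2.07e-04, 95% confidence interval 1.57 to 2.26). Over the alternatives the value lay between 1.78 and 2.49. Of the importin alpha genes, Kpna2 is the one best known from dividing cells, where its product also holds the spindle factor Tpx2.

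3 probe sets read Kpna2, and each was called, with log2 fold changes of 1.68, 1.74 and 1.91. Each is annotated with the same 8 accessions, and the sources used here do not say which copy of the gene each probe set reads, so they count as 1 measurement of uncertain position. Markers of proliferation moved with Kpna2. The mean level of 17 such genes was 8.64 and 8.67 in lal-/- cells and 7.41 and 7.27 in lal+/+ cells, with a median log2 fold change of 1.45. Cdk1 (2.49) and Bub1 (2.57) had the largest changes of the 13 called higher. Mki67 (0.52), Mcm2 (0.38), Mcm6 (0.09) and Pcna (-0.23) were not called. The part of proliferation in the Kpna2 difference was not tested.

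None of the other 5 importin alpha genes was called. Kpna1 read 8.03 and 7.996 in lal-/- cells and 7.79 and 7.56 in lal+/+ cells (log2 fold change 0.34, adjusted p = 0.102 from limma). Kpna4 read 8.66 and 8.66 in lal-/- cells and 9.13 and 8.85 in lal+/+ cells (-0.33, adjusted p = 0.128). Neither overlapped between genotypes. They lay on opposite sides with quantile normalization only, since Kpna4 turned to 0.052 as deposited and 0.23 with a common median, where Kpna1 was at 0.54 and 0.72. Kpna3 (0.13) and Kpna6 (0.12) overlapped. Kpna7, known from oocytes and early embryos, lay below background in both genotypes, at 5.72 and 5.63 in lal-/- cells and 6.19 and 6.21 in lal+/+ cells. With quantile normalization, the 95% intervals of these 5 genes ran from -0.82 at the lowest to 0.66 at the highest. A 2-fold change thus lay outside each of them there, whereas the whole interval of Kpna2 lay above it. Other scalings brought some estimates nearer to 2-fold (Kpna1 at 0.72 with a common median, Kpna7 at -0.73 as deposited), and their intervals are not given.

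The importin beta family holds the receptors that dock at the pore itself. Kpnb1, importin beta 1, which carries the importin alpha complexes, read 8.35 and 8.18 in lal-/- cells and 8.48 and 8.51 in lal+/+ cells. Its log2 fold change of -0.23 (adjusted p = 0.222 from limma) turned to 0.09 with the values as deposited and to 0.27 with a common median, whereas that of its partner Kpna2 was positive in each. With quantile normalization the 10 genes of the family had a median of -0.03 and 0 calls. Their median was positive with the other scalings. The next genes were named after their values were seen. Ipo5, an importer of ribosomal proteins and histones, read 7.61 and 7.95 in lal-/- cells and 8.59 and 8.62 in lal+/+ cells, with no overlap. It was 1.78-fold lower (log2 fold change -0.83, standard error 0.15, adjusted p = 0.00623), under the fold threshold. Its log2 fold change was -0.56 as deposited and -0.38 with a common median, where the adjusted p was no longer under 0.05.

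Tnpo3, an importer of SR splicing factors, moved the other way. It read 8.95 and 9.03 in lal-/- cells and 8.48 and 8.27 in lal+/+ cells, again with no overlap, and was 1.53-fold higher (adjusted p = 0.013 from limma). With a common median it passed the fold threshold, at 1.16. Ipo7, also an importer of ribosomal proteins, read 7.75 and 7.93 in lal-/- cells and 8.58 and 8.17 in lal+/+ cells (-0.54, adjusted p = 0.0536). Ipo11 lay below background in both genotypes, and Ipo4, Ipo8, Ipo9, Ipo13 and Tnpo1 lay between -0.12 and 0.24 with adjusted p of at least 0.239. Tnpo1 was at 0.60 as deposited and 0.78 with a common median.

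Exportins bind their cargo together with Ran in its GTP form. Xpo1, the exporter of proteins with a leucine-rich export signal and of ribosomal subunits, read 9.89 and 9.84 in lal-/- cells and 10.25 and 10.24 in lal+/+ cells. The arrays did not overlap, but the log2 fold change of -0.38 (adjusted p = 0.0526 from limma) turned to 0.10 as deposited and 0.28 with a common median. Cse1l, which returns importin alpha to the cytoplasm, read 8.48 and 8.27 in lal-/- cells and 9.55 and 9.09 in lal+/+ cells. It was 1.93-fold lower (log2 fold change -0.95, standard error 0.18, adjusted p = 0.00797, 95% interval -1.38 to -0.52), just under the fold threshold, and thus differed in direction from Kpna2, whose product it recycles. It passed the threshold without lal-/- replicate 1 (-1.02) and without lal+/+ replicate 2 (-1.20), while with the values as deposited it was -0.56 and with a common median -0.38.

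The other exportins, named after their values were seen, did not share a direction. Xpo7, known from the erythroid lineage, read 8.14 and 8.26 in lal-/- cells and 8.96 and 8.79 in lal+/+ cells, and was 1.60-fold lower (adjusted p = 0.00814 from limma). Xpo5, the exporter of microRNA precursors, read 7.04 and 7.24 in lal-/- cells and 6.73 and 6.44 in lal+/+ cells, and was 1.47-fold higher (adjusted p = 0.0324), with its lal+/+ arrays below background. Xpo4 (-0.53, adjusted p = 0.0405), the tRNA exporter Xpot (-0.36, adjusted p = 0.062) and the actin exporter Xpo6 (0.08, adjusted p = 0.655) made up the rest. Xpo6 was at 0.54 as deposited and 0.72 with a common median. The 7 exportins had 2 positive and 5 negative log2 fold changes and a median of -0.38. Xpo7 was -0.34 as deposited and -0.16 with a common median, and Xpo1 changed sign, so this count holds for quantile normalization only.

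The 4 genes of the Ran cycle were not called, and their median was 0.04. Ran read 10.10 and 9.99 in lal-/- cells and 10.12 and 10.35 in lal+/+ cells, nearly meeting between genotypes (log2 fold change -0.19, adjusted p = 0.335 from limma, 95% interval -0.52 to 0.13). Ranbp1, a helper of GTP hydrolysis on Ran, read 8.97 and 9.10 in lal-/- cells and 9.42 and 9.22 in lal+/+ cells (-0.28, adjusted p = 0.162). Both were positive with the values as deposited (0.30 and 0.15) and with a common median (0.48 and 0.33). Rangap1, the activator of hydrolysis outside the nucleus, read 7.16 and 7.19 in lal-/- cells and 7.03 and 6.78 in lal+/+ cells (0.27, adjusted p = 0.183). Rcc1, the exchange factor on chromatin, read 6.76 and 6.72 in lal-/- cells and 6.48 and 6.29 in lal+/+ cells, where it lay below background (0.36, adjusted p = 0.0806). Rangap1 and Rcc1 thus had positive estimates, Ranbp1 a negative one with quantile normalization, and each missed the threshold.

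**Figure D3:**
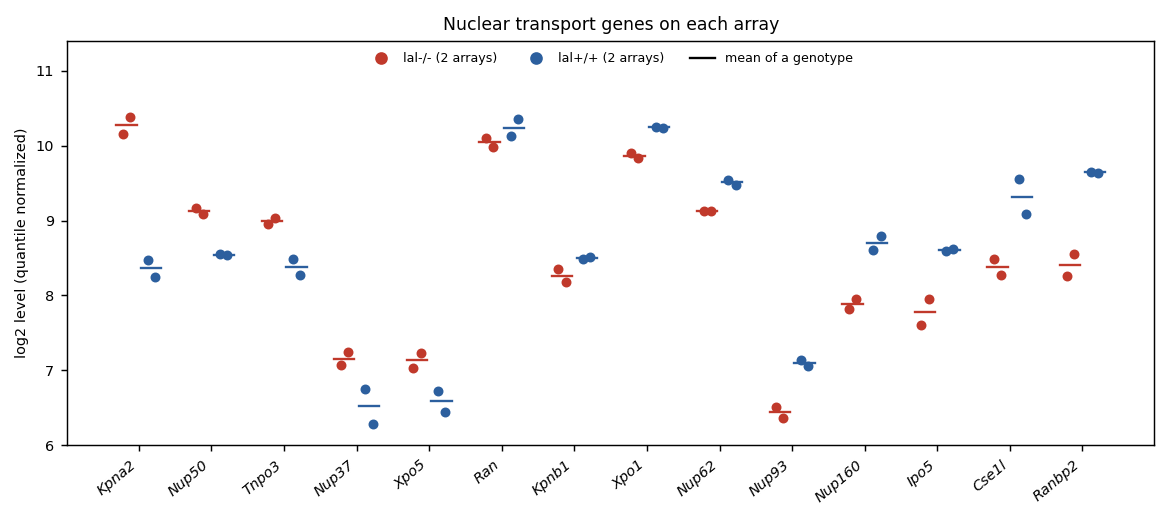
Log2 level (quantile normalized) of 14 transport genes on the 4 arrays, with a point for each array, a bar for the genotype's mean, and lal-/- to the left of lal+/+. Kpna2 at 10.16 and 10.39 in lal-/- cells and Ranbp2 at 8.26 and 8.55 stand apart from their lal+/+ arrays, while Ran, Kpnb1, Xpo1 and Nup62, lower here in lal-/- cells, turned positive with the other scalings.

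At the cytoplasmic face, filaments receive export complexes and Ran is released from them. Ranbp2, which anchors sumoylated Rangap1 there and acts as a SUMO ligase, read 8.26 and 8.55 in lal-/- cells and 9.65 and 9.64 in lal+/+ cells, with no overlap. The mean level was 8.41 ± 0.21 in lal-/- cells and 9.64 ± 0.01 in lal+/+ cells (SD, n = 2 arrays each), and the log2 fold change was -1.24 (standard error 0.14, limma adjusted p = 9.50e-04, 95% interval -1.57 to -0.90). It was -0.84 with the values as deposited (adjusted p = 0.00389) and -0.66 with a common median (adjusted p = 0.0122), and so no longer passed the fold threshold in either. Markers of B cells fell in the same arrays, with a mean level of 5.95 and 5.84 in lal-/- cells and 9.93 and 9.71 in lal+/+ cells and 4 of 7 below background in lal-/- cells. Markers of monocytes and macrophages did so as well (6.88 and 6.95 in lal-/- cells, 9.43 and 9.24 in lal+/+ cells, with 3 of 8 below background in lal-/- cells). Their part in the Ranbp2 difference was not tested.

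The other cytoplasmic genes were not called. Nup98, which also binds chromatin inside the nucleus, read 8.30 and 8.20 in lal-/- cells and 8.70 and 8.38 in lal+/+ cells (log2 fold change -0.29, adjusted p = 0.194 from limma, turning to 0.03 as deposited and 0.21 with a common median). Its mRNA export partner Rae1 read 8.57 and 8.36 in lal-/- cells and 8.14 and 7.94 in lal+/+ cells (0.43, adjusted p = 0.0628), and a dimmer probe set of Rae1 had 0.61 (adjusted p = 0.0122). Nup214, a docking site of Xpo1, read 7.70 and 7.74 in lal-/- cells and 8.15 and 7.99 in lal+/+ cells (-0.35, adjusted p = 0.082, turning to 0.04 with a common median). Its partner Nup88 was at 0.27, with both lal-/- arrays above both lal+/+ arrays by little. As deposited Nup88 was at 0.62 and Rae1 at 0.72, and with a common median they were at 0.80 and 0.90. Aaas, the gene of triple A syndrome in humans, was at -0.09 with overlapping arrays (0.16 with a common median).

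The nuclear basket faces the chromatin. Nup153, one of its anchors, read 8.74 and 8.56 in lal-/- cells and 9.41 and 8.96 in lal+/+ cells (log2 fold change -0.54, adjusted p = 0.0598 from limma, turning to 0.04 with a common median). Nup50, which binds Nup153 and helps to release cargo from importin alpha, read 9.17 and 9.09 in lal-/- cells and 8.56 and 8.53 in lal+/+ cells. It was 1.498-fold higher (0.58, standard error 0.12, adjusted p = 0.0109), was at 0.97 as deposited, and passed the fold threshold with a common median, at 1.15. The estimates of these binding partners thus had opposite signs with quantile normalization.

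The Y complex is the outer scaffold of the pore and also binds kinetochores in mitosis. Nup107, a core subunit, read 8.26 and 8.25 in lal-/- cells and 8.03 and 7.69 in lal+/+ cells (log2 fold change 0.39, adjusted p = 0.0955 from limma). Nup160, its neighbor in the complex, read 7.81 and 7.95 in lal-/- cells and 8.60 and 8.79 in lal+/+ cells, and was 1.76-fold lower (-0.81, standard error 0.13, adjusted p = 0.00428). Nup37, which binds Nup160, read 7.08 and 7.24 in lal-/- cells and 6.75 and 6.28 in lal+/+ cells, below background there, and was 1.56-fold higher (adjusted p = 0.0359). Nup160 and Nup37 thus lay on opposite sides of 0, each at an adjusted p under 0.05. Nup107, Nup160 and Nup37 kept their signs as deposited (0.64, -0.52 and 0.57) and with a common median (0.82, -0.34 and 0.75). With a common median, however, the adjusted p of Nup160 was no longer under 0.05. Nup133 (0.57), Nup43 (0.27), Nup85 (0.12) and Seh1l (-0.21) had adjusted p of at least 0.0923. Nup160, Nup37 and these 4 were named after their values were seen.

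The inner ring, the channel and the membrane ring held no called gene. Nup93, the linker of the inner ring, read 6.52 and 6.36 in lal-/- cells and 7.13 and 7.06 in lal+/+ cells, and was 1.57-fold lower (log2 fold change -0.65, standard error 0.13, limma adjusted p = 0.0084, and -0.74 as deposited). Its partners Nup205 (-0.11), Nup155 (-0.08) and Nup188 (0.20) had adjusted p of at least 0.393. Nup62, a repeat protein of the central channel, read 9.13 and 9.13 in lal-/- cells and 9.54 and 9.48 in lal+/+ cells, with no overlap (-0.38, adjusted p = 0.052), and turned to 0.07 as deposited and 0.25 with a common median. Its partner Nup54 was at 0.20.

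The transmembrane nucleoporins anchor the pore in the envelope. Ndc1 lay below background in both genotypes, at 5.70 and 6.32 in lal-/- cells and 5.54 and 5.14 in lal+/+ cells (log2 fold change 0.67, adjusted p = 0.0697 from limma). Pom121 read 6.94 and 6.69 in lal-/- cells and 6.51 and 6.82 in lal+/+ cells, with overlap (0.15, adjusted p = 0.528). Nup210, known for its role in muscle and T cell differentiation, read 7.20 and 7.19 in lal-/- cells and 7.10 and 6.997 in lal+/+ cells (0.14, adjusted p = 0.427). Nup210l, a relative known from the testis, is read by 9 probe sets that disagreed, from -0.82 (the brightest, adjusted p = 0.0448) to 0.22, so no direction is given. Nup62cl lay far below background in both genotypes.

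The nucleoporins and the transport factors held 1 called gene each. Of 26 pore genes 0 were called higher and 1 lower, and their median was 0.11 on the log2 scale. Of 27 genes of receptors and the Ran cycle 1 was called higher and 0 lower, and their median was -0.12. These counts and medians hold for quantile normalization. With the values as deposited and with a common median, the median of the 27 genes was positive. Of the 5 genes higher at an adjusted p under 0.05 (Kpna2, Nup37, Tnpo3, Nup50 and Xpo5), 5 were so with a common median and 5 as deposited. The 10 lower genes were Ranbp2, Cse1l, Ipo5, Nup210l, Nup160, Xpo7, Nup93, Ipo11, Xpo4 and Kpna7. Of these, 5 were lower with a common median and 8 as deposited. The excess of lower over higher genes held for quantile normalization only. With a common median, 15 nuclear pore and transport genes in all were higher and 5 lower at this adjusted p. As deposited 11 were higher and 9 lower. These counts take the brightest probe set of Nup210l, whose probe sets disagreed, and include Kpna7 and Ipo11, which lay below background in both genotypes. All 3 are among the 5 and the 8.

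Genes that work beside the pore were taken from 5 further lists, of which 42 of 48 genes were measured. 3 were called higher and 1 lower, and their median was 0.19 on the log2 scale. Of 24 genes of mRNA export, 2 were higher and 1 lower. Ncbp1, the larger cap-binding subunit, read 8.77 and 8.77 in lal-/- cells and 7.67 and 7.38 in lal+/+ cells (1.25, adjusted p = 9.06e-04 from limma). Nxt2, a cofactor of the mRNA exporters, read 8.43 and 8.49 in lal-/- cells and 7.28 and 7.12 in lal+/+ cells (1.26, adjusted p = 5.73e-04). Thoc1 of the THO complex, which loads export factors during transcription, read 6.13 and 6.002 in lal-/- cells, below background, and 7.39 and 7.13 in lal+/+ cells (-1.20, adjusted p = 0.00103).

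Of 5 other regulators of Ran, Ranbp9 was higher, at 10.61 and 10.74 in lal-/- cells and 9.76 and 9.49 in lal+/+ cells (log2 fold change 1.05, adjusted p = 0.00192 from limma). It is known mainly as a scaffold of a ubiquitin ligase complex and not as a factor of the Ran cycle, and it fell under the fold threshold without lal-/- replicate 2 (0.99) and without lal+/+ replicate 2 (0.90). None of 3 other pore proteins, 5 other carriers and 5 genes of the SUMO cycle was called. The 4 called genes are 9.52% of the 42, against 10.8% of all genes. Of the 42, 34 lay above background in both genotypes, and 18.7% of all genes at such levels were called.

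**Figure D4:**
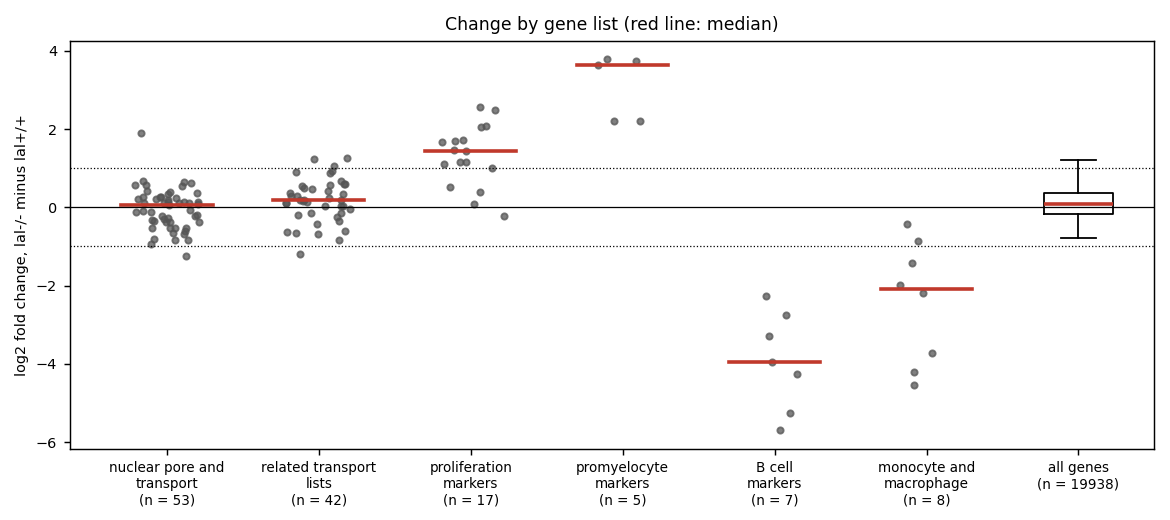
Log2 fold change (lal-/- minus lal+/+) of single genes as points, by list, with a red line at the median, dotted lines at a 2-fold change, and all 19938 genes as a box of the quartiles with whiskers from the 5th to the 95th percentile. The nuclear pore and transport genes (median 0.067) and the related lists (0.19) lie around 0, the proliferation markers (1.45) and promyelocyte markers (3.65) above, and the B cell markers (-3.95) and monocyte and macrophage markers (-2.08) below.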

How the data were processed

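Log2 expression values for 35557 probe sets were deposited, which the authors computed from the scans with RMA in Partek Genomics Suite, and the labels list GCOS 1.1. The labels describe NuGEN amplification and labeling reagents and the methods an Affymetrix kit. Of the probe sets, 21789 name 1 gene, 1621 name several genes and 12147 are not listed in the gene table. For 21698 the symbol was matched to a current one, and the probe set with the highest mean stood for each of 999 genes that have several. The probe sets do not tell near-identical copies of a gene apart.

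The columns were quantile normalized and compared with limma 3.58.1 in R 4.3.3, with genotype as the only term, 4.83 prior degrees of freedom and 2 residual ones. Benjamini-Hochberg adjustment ran over the 21789 probe sets of 1 gene each. The unadjusted p was under 0.05 for 40.9% of them. The tissue term of the methods has no counterpart in 1 tissue. On simulated data of 19938 genes, the test recovered 67 of 67 genes with a log2 change of 1.5, 67 of 67 with one of 2 and 66 of 66 with one of 3, and called 1 unchanged gene. In this simulation the noise was normal, few genes changed, in random directions, and no change was smaller than 1.5. It therefore does not bear on calls near a 2-fold change or on the choice of scaling. The number of arrays limits the precision.

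The genes and lists were chosen with earlier results of these data known. The genes described in full were those called, a fixed group of main subunits and factors (Ran, Rcc1, Rangap1, Ranbp1, Kpna2, Kpnb1, Cse1l, Xpo1, Nup98, Nup62, Nup107, Nup93, Nup153, Ranbp2, Pom121, Ndc1, Nup210 and Lipa), and called genes of the related lists, up to 4 a direction. Other genes are named to account for all 53, after their values were seen. The alternatives were other scalings, a minimum level of 6.27, p-values adjusted over all probe sets, a stricter adjusted p (0.01), no fold threshold, an ordinary linear model, robust variances with an intensity trend, a replicate block, the mean of a gene's probe sets, and leaving out each array. Protein sequences were not used here.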

Additional observations from a re-analysis of the deposited data

How the results depend on the processing

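Kpna2 was called higher in each alternative but the ordinary linear model (adjusted p = 0.0781), and Ranbp2 was not called lower in it (adjusted p = 0.0997), with a common median (log2 fold change -0.66) or as deposited (-0.84). Among the 53 genes the number called higher was 3 with a common median (Nup50 and Tnpo3 beside Kpna2), 0 in the ordinary model and 5 with no fold threshold. The number lower was 0, 0 and 10 in these settings, and 0 as deposited. The counts with no fold threshold are those of quantile normalization. With the other scalings more of the 53 genes were higher than lower at an adjusted p under 0.05. Leaving out 1 array gave 1 higher and 1 to 2 lower, where Cse1l joined without lal-/- replicate 1 or lal+/+ replicate 2, and Nup210l without lal+/+ replicate 1. The lone array was then assumed to vary like the other genotype. The median of the 53 genes was 0.25 with a common median and -0.06 to 0.01 with 1 array left out.

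Of all genes 1508 were higher and 646 lower with quantile normalization, 2619 and 467 with a common median, and 2013 and 633 as deposited, where the median of all genes was -0.055. With no fold threshold 3938 were higher and 1963 lower. The ordinary linear model, with 2 residual degrees of freedom, called 0 genes in either direction, although 5691 genes and 13 of the 53 had an unadjusted p under 0.05 in it. Of the related lists, 6 genes were higher with a common median, 6 as deposited, 0 in the ordinary model, 13 with no fold threshold and 2 to 5 with 1 array left out. The number lower was 0 in the ordinary model, 7 with no fold threshold and 1 to 2 with 1 array left out. Their median was 0.52 with a common median and 0.34 as deposited.

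17 of the 53 genes changed sign in an alternative. Of those described in full, this held with a common median and as deposited for Ran (0.48 and 0.30), Ranbp1 (0.33 and 0.15), Kpnb1 (0.27 and 0.092), Xpo1 (0.28 and 0.10), Nup98 (0.21 and 0.031) and Nup62 (0.25 and 0.069), for Nup153 with a common median only (0.042), and for Pom121 without lal+/+ replicate 1 (-0.0044, the lowest with 1 array left out, and 0.32 the highest). Kpna4 (0.23 and 0.052) and Nup155 (0.27 and 0.093) changed in both scalings too, and Nup214 (0.044) and Aaas (0.16) with a common median. Whether the replicate numbers pair the arrays could not be decided. Deviations of arrays with the same number correlated at -0.18 over 21789 probe sets, and those of arrays with crossed numbers at 0.18. With so few arrays the crossed value is only the same value with its sign reversed, so no conclusion on pairing is drawn from it. With a replicate block 1 of the 53 genes was higher (Kpna2, adjusted p = 5.14e-05) and 1 lower (Ranbp2, adjusted p = 4.46e-04), and the block changed no call among them. The crossed pairing, chosen after the data were seen, also gave 1 higher and 1 lower. The causes of these changes were not tested. In lal+/+ cells 13 of the 53 genes lay below background, which limits what a missing call says about them.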
